A study of Rattus norvegicus with 8 samples.

Results

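The miR-17/92a and miR-106b-25 clusters were examined in small RNA reads from the kidneys of 8 rats, and their members are the 20 rows of the table of 620 rat miRNAs whose names carry 1 of 9 hairpin names (miR-17, miR-18a, miR-19a, miR-19b, miR-20a, miR-92a, miR-106b, miR-93 or miR-25) with any arm suffix. The miR-17/92a cluster has 12 of these rows, the miR-106b-25 cluster has 6, and the other 2 are arms of the X-linked copies of miR-17 and miR-19b. The names of miR-17-1-3p and miR-17-2-3p hold a locus number before the arm, and both were counted as arms of miR-17. The animals were male Big Blue rats, a transgenic Fisher 344 line that carries a mutation reporter, and they were 6 weeks old when dosing began. The AA group of 4 rats received aristolochic acid (AA), a plant nephrotoxin and carcinogen, as its sodium salt by gavage at 10 mg/kg, with 5 doses a week over 12 weeks, from a preparation of 96% purity with 40% AAI and 56% AAII. Saline was given on that schedule to the 4 rats of the control group (CTL), and all kidneys were taken 1 day after the last dose. RNA came from minced kidney tissue, so that a change in the number of cells of a type and a change in RNA per cell cannot be told apart.

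These clusters are polycistronic, which means that several hairpins are cut from one primary transcript. miR-17/92a is known as a MYC-driven cluster that promotes cell proliferation and survival, and it is needed by the progenitor cells of the developing kidney. miR-106b-25 is hosted by Mcm7, a gene for a subunit of the replicative helicase, and is a paralogue of miR-17/92a. Both clusters share seeds, the bases at positions 2 to 8 that guide target recognition, so that members of a seed family are thought to have overlapping targets. The miR-17 family is known to repress the cell cycle inhibitor CDKN1A, and the miR-25/92a family the pro-apoptotic factor BIM.

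RefSeq (assembly GRCr8) held a mature sequence for all 20 members. The main arms are shown 5′ to 3′ because they define the 4 seed families that are compared, with the seed in capitals. The 4 members of the miR-17 family carry the same seed in both clusters.
miR-17-5p: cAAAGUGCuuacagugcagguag
miR-20a: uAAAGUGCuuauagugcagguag
miR-106b: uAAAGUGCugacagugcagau
miR-93: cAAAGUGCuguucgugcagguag
The miR-18 family has 1 member in these clusters, with a seed of its own.
miR-18a: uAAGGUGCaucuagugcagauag
The miR-19 family comes only from the miR-17/92a cluster among the rows examined.
miR-19a: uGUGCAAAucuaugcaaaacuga
miR-19b: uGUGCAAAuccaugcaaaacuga
The miR-25/92a family again has members in both clusters.
miR-92a: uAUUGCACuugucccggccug
miR-25: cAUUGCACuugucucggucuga

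In GRCr8, the mature arms of the miR-17/92a cluster lie on the plus strand at chr15:98587861-98588622, where 6 hairpins fit in 762 nt. Those of the miR-106b-25 cluster lie on the minus strand at chr12:22156652-22157123, where 3 hairpins fit in 472 nt inside the Mcm7 gene. The likeness of the sequences bears on how the reads were counted. Counting positions from 1 at the 5′ end, and with the base of the first-named miRNA written first, miR-19a and miR-19b differ by U11C alone, and miR-17-5p and miR-20a differ by C1U and C12U. miR-92a and miR-25 differ by U1C, C14U and C18U over 21 compared bases. Reads with a mismatch can therefore move more easily between miR-19a and miR-19b than between the pairs with 2 or 3 differences. The number of mismatches that was allowed for known miRNAs is not given in the sources used here. The mature miR-17-5p, miR-19b and miR-92a are each encoded at 2 loci, 1 on chromosome 15 and 1 on chromosome X, and their reads cannot be told apart by locus. The opposite arms differ between the loci. miR-17-1-3p of chromosome 15 had 2299 reads over the 8 libraries and miR-17-2-3p of chromosome X had 2, while miR-19b-1* had 111 reads and miR-19b-2* had 1. Nearly all reads on these opposite arms carried the chromosome 15 names. Other miRNAs of the X-linked cluster did have reads, with 134 to 263 in a library for miR-363 and 60 to 112 for miR-20b-5p. How the reads of the 3 shared mature forms divide between the loci was not measured.

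The libraries held 13412373 to 15616670 reads on known miRNAs. Members took 0.263% ± 0.0549 (SD, n = 4) of these reads in the controls and 0.363% ± 0.0363 (SD, n = 4) in the AA group. Levels are given as CPM, reads scaled to library size with TMM factors, with each read counted once whatever the length of the miRNA. Reads had no molecular identifiers, and differences in ligation and PCR between miRNAs, which bear on the order of their levels, were not tested. miR-93 was the most abundant member in both groups, at 733 ± 103 CPM in the controls and 759 ± 130 in the AA group (SD, n = 4 each), and ranked 55 and 56 among the 620 miRNAs. In the control group miR-20a (451 ± 111 CPM) and miR-25 (450.1 ± 42.9 CPM) followed, and these neighbours did not differ beyond their spread. miR-92a (356 ± 83.8 CPM) and miR-17-5p (349 ± 72.1 CPM) came next and likewise did not differ beyond their spread. Below them stood miR-106b (276 ± 51.5 CPM), miR-19b (122 ± 15.3 CPM), miR-18a (20.03 ± 4.47 CPM) and miR-19a (12.0 ± 3.46 CPM), and this order held in each of the 4 control libraries. Main arms cut from one transcript thus ranged from 12.0 to 451 CPM in their mean control level. In the AA group miR-20a (681 ± 122 CPM) stood directly under miR-93, which was higher in 3 of the 4 AA libraries and had been higher in 4 of 4 control libraries. miR-17-5p, miR-25 and miR-92a did not differ beyond their spread in the AA group.

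**Figure D1:**
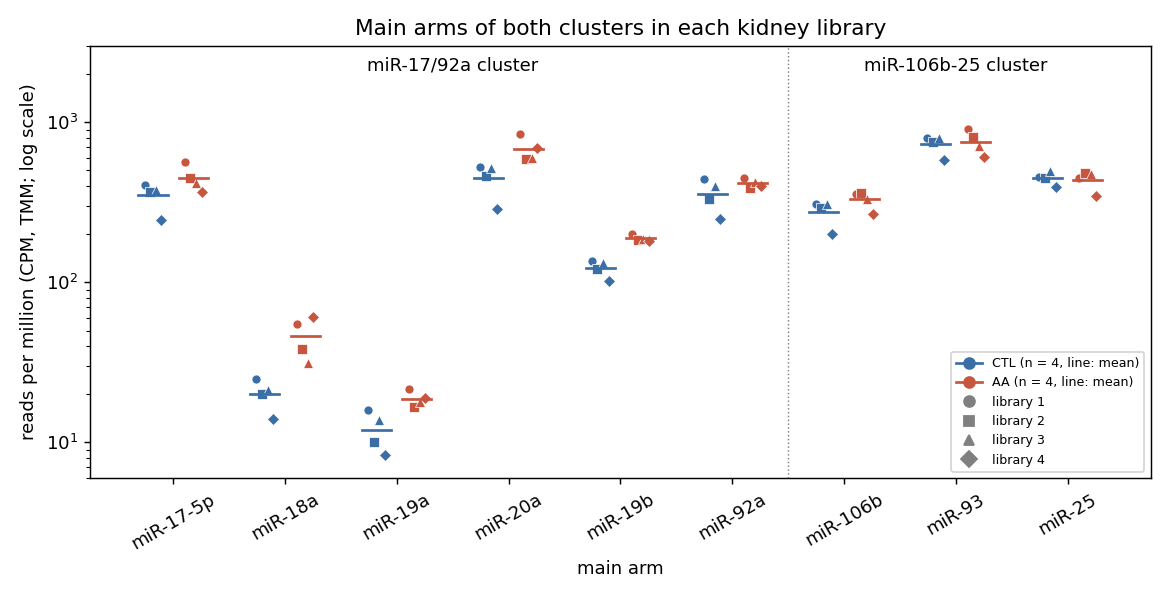
CPM (reads scaled to library size with TMM factors, log axis) of the 9 main arms in each of the 4 control and 4 AA libraries, with the mean of each group as a line and the library number as the marker. The AA libraries lie above every control library for miR-18a, miR-19a, miR-20a and miR-19b, and the groups overlap for the other 5 arms.

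Within the miR-17/92a cluster, miR-18a and miR-19b were higher in the AA group, and the other main arms did not pass the test. miR-18a, which is known to repress the matrix protein CTGF, was at 24.7, 20.2, 21.2 and 14.0 CPM in control libraries 1 to 4 and at 54.6, 38.5, 31.4 and 61.2 CPM in AA libraries 1 to 4. Every AA library lay above every control library, and the third AA library was the nearest to the controls. Its log2 fold change of 1.21 (SE, standard error, 0.27, and adjusted p = 0.012 in the quasi-likelihood test of edgeR, Benjamini-Hochberg over 367 miRNAs) is a 2.32-fold rise. The call for miR-18a was kept in all 16 alternative fits, in which its log2 fold change lay between 0.91 and 1.41.

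miR-19b, the more abundant member of the miR-19 family, was at 135, 121, 132 and 101 CPM in control libraries 1 to 4 and at 201, 185, 188 and 181 CPM in AA libraries 1 to 4. The groups did not overlap, and the AA libraries were close to each other. The log2 fold change was 0.63 (SE 0.17, edgeR adjusted p = 0.029), a 1.54-fold rise. When 1 library at a time was dropped, the call was lost in 6 of 8 fits, and the edgeR adjusted p reached 0.11 without the first AA library. The direction was the same in all 16 alternative fits.

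miR-19a, which shares its seed with miR-19b, was at 15.9, 10.1, 13.8 and 8.31 CPM in the control libraries and at 21.6, 16.5, 17.96 and 18.8 CPM in the AA libraries, in the order 1 to 4. The groups did not overlap, but the log2 fold change of 0.64 (SE 0.24) did not pass the test (edgeR adjusted p = 0.10). miR-20a, a miR-17 family member, was at 527, 465, 522 and 289 CPM in control libraries 1 to 4 and at 850, 587, 596 and 692 CPM in AA libraries 1 to 4. Here too the groups did not overlap, with the fourth control library far below the other controls, and the log2 fold change of 0.60 (SE 0.22) did not pass (edgeR adjusted p = 0.10). miR-17-5p was at 408, 365, 379 and 244 CPM in the control libraries and at 564, 452, 420.0 and 368 CPM in the AA libraries. For miR-17-5p, the fourth AA library overlapped with the controls, and the log2 fold change was 0.37 (SE 0.21, edgeR adjusted p = 0.25). miR-92a, the last hairpin of the cluster, was at 439, 334, 402 and 249 CPM in the control libraries and at 449, 389, 427 and 399 CPM in the AA libraries. The groups overlapped for miR-92a, whose log2 fold change was 0.22 (SE 0.19, edgeR adjusted p = 0.45).

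None of the 3 main arms of the miR-106b-25 cluster passed edgeR's test in either direction, and none was called in the 16 alternative fits, DESeq2 included. At an unadjusted p under 0.05 the count was 0 of 3, against 110 of the 367 miRNAs tested, or 30%. miR-93, which shares the miR-17 seed, was at 796, 753, 801 and 582 CPM in the control libraries and at 906, 810.1, 715 and 603 CPM in the AA libraries, a log2 fold change of 0.05 (SE 0.18, edgeR adjusted p = 0.87). The spread of miR-93 within each group was larger than the difference between the groups. miR-106b was at 307, 291, 307 and 199.7 CPM in the control libraries and at 357, 362, 332 and 269 CPM in the AA libraries, a log2 fold change of 0.26 (SE 0.19, edgeR adjusted p = 0.37). For miR-106b, 3 AA libraries lay above all controls and the fourth fell among them. miR-25, with the miR-25/92a seed, was at 456, 451, 499 and 395 CPM in the control libraries and at 450.0, 479, 476 and 346 CPM in the AA libraries. Its log2 fold change of -0.04 (SE 0.16, edgeR adjusted p = 0.89) was the only negative one among the members tested, and the groups overlapped. Over the 16 alternative fits the sign was positive in 10 for miR-93 and in 2 for miR-25, so that neither has a direction that holds across the settings.

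**Figure D2:**
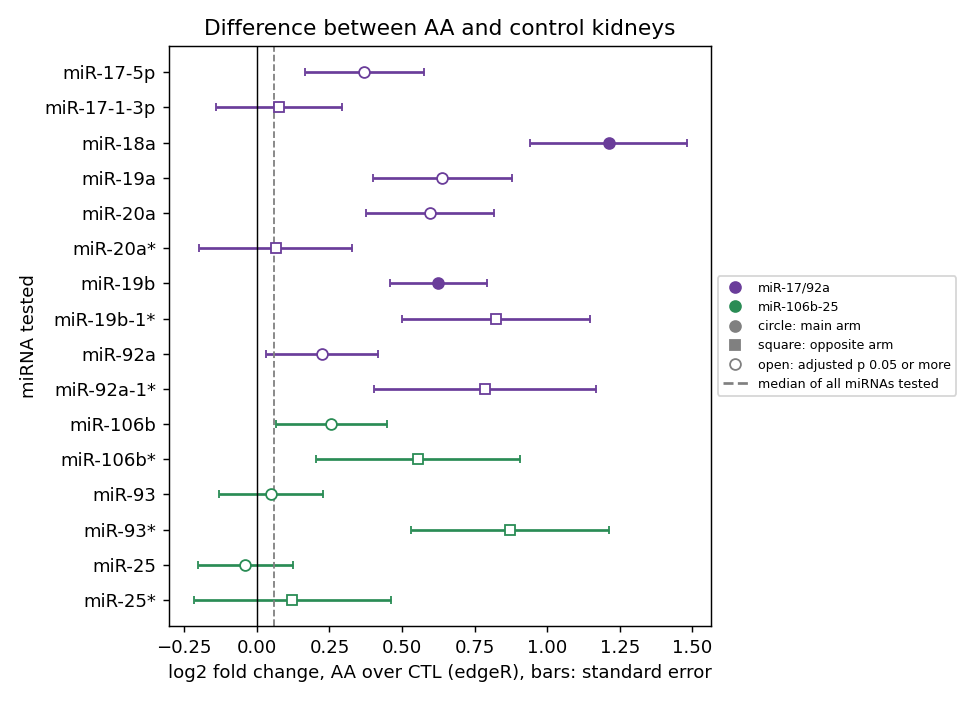
Log2 fold change of AA over control (edgeR, bars: standard error) of the 16 members tested, with filled markers for an adjusted p under 0.05 and a dashed line at the median of all 367 miRNAs tested. The 2 filled markers are miR-18a at 1.21 and miR-19b at 0.63, and 15 of the 16 markers lie above 0 (12 to 16 of 16 over alternative settings).

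Of the 20 members, 16 were tested, having reached 10 reads in 4 or more libraries. The other 4 (miR-18a*, miR-19a*, miR-17-2-3p and miR-19b-2*) had 0 to 22 reads in a library. Of the 16 tested, 2 were called higher in the AA group and 0 were called lower, or 12.5% and 0%. Over all 367 miRNAs tested, 10.4% were called higher, 5.99% lower and 16.3% in either direction, so that the share of members called is near that of the whole table. The groups did not overlap in 6 of the 16 members, all with higher AA levels, against 24.3% of all miRNAs in either direction. The log2 fold change was positive in 15 of the 16 members, or 12 to 16 over the alternatives with 16 members tested, and in 54.8% of all miRNAs tested. The median log2 fold change was 0.46 over the 16 members, 0.61 over the 10 tested rows of the miR-17/92a cluster, 0.19 over the 6 rows of the miR-106b-25 cluster and 0.06 over all miRNAs tested. Scaling by total reads in place of TMM moved the median of all miRNAs to 0.27 and that of the members to 0.67, so that the members' distance from the rest was close to the same.

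For the cluster as a whole, reads of its rows were summed in each library. The miR-17/92a sum was 1574, 1336, 1492 and 928 CPM in control libraries 1 to 4 and 2166, 1687, 1701 and 1754 CPM in AA libraries 1 to 4. All AA sums of miR-17/92a lay above all control sums, and the fourth control library was the lowest. The mean log2 difference was 0.48 with a standard error of 0.19, and it was 0.31 without the fourth control library. The miR-106b-25 sum was 1577, 1512, 1621 and 1205 CPM in the control libraries and 1739, 1669, 1542 and 1263 CPM in the AA libraries. Here the groups overlapped, with the lowest sum of each group in the library numbered 4. The mean log2 difference was 0.07 with a standard error of 0.14, and it was -0.03 without the fourth control library, 0.01 without the first AA library, 0.03 without the second, 0.17 without the fourth, and 0.12 without control library 3. These sums are descriptions of chosen rows and were given no test.

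The ratio of the clusters within a library does not depend on how libraries are scaled to each other. Reads of miR-17/92a over reads of miR-106b-25 gave 0.998, 0.883, 0.920 and 0.770 in control libraries 1 to 4 and 1.25, 1.01, 1.10 and 1.39 in AA libraries 1 to 4. Every control library thus had fewer reads on miR-17/92a than on miR-106b-25, and every AA library had more. The margin was small in control library 1 and in AA library 2. The mean ratio was 0.893 ± 0.0950 in the controls and 1.19 ± 0.166 in the AA group (SD, n = 4 each). Without the 3 mature forms that chromosome X also encodes, an alternative chosen after the data were seen, the mean log2 difference of the ratio went from 0.41 to 0.56.

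**Figure D3:**
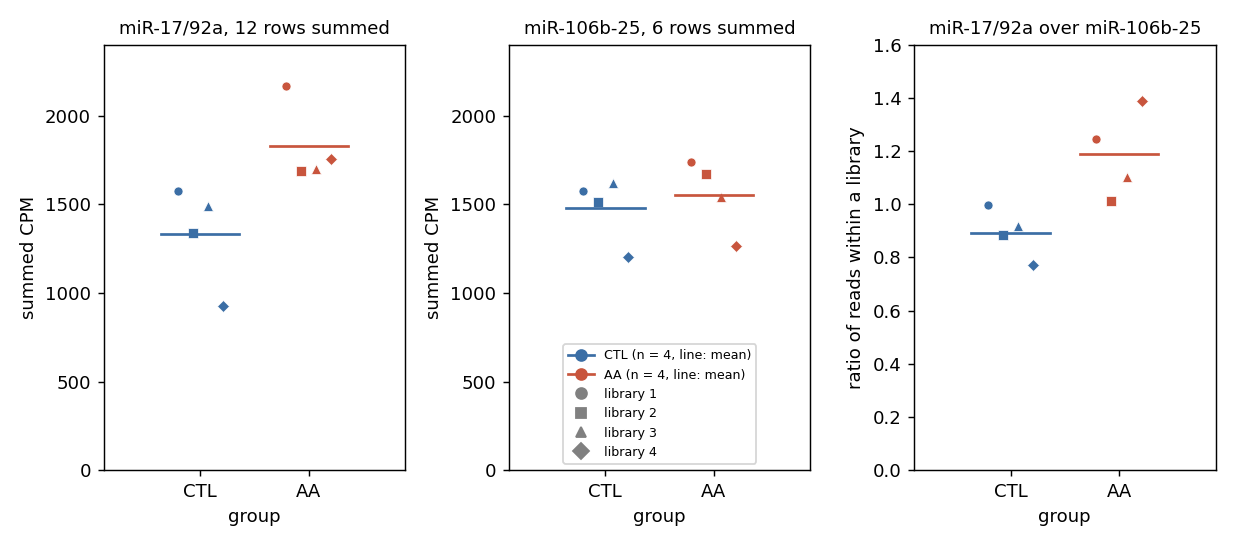
Summed CPM of the 12 miR-17/92a rows and of the 6 miR-106b-25 rows, and the ratio of their reads, in each library, with the mean of each group (n = 4) as a line. The ratio runs from 0.770 to 0.998 in the control libraries and from 1.01 to 1.39 in the AA libraries, while the miR-106b-25 sums of the groups overlap.

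The same rows were regrouped by seed, since both clusters feed the miR-17 and the miR-25/92a families. The miR-17 family took most of the main-arm reads, 65.2% ± 1.47 in the controls and 66.6% ± 2.14 in the AA group (SD, n = 4 each), and the groups overlapped. The miR-25/92a family took 29.2% ± 1.25 and 25.8% ± 2.01, again with overlap. The miR-19 family took 4.88% ± 0.269 in the controls and 6.27% ± 0.441 in the AA group without overlap. The miR-18 family, which is miR-18a alone, took 0.719% ± 0.0544 and 1.41% ± 0.483 without overlap. In CPM, the miR-19 sum was 151, 131, 146 and 109.6 in the control libraries and 223, 201, 206 and 200.1 in the AA libraries, a mean log2 difference of 0.64 with a standard error of 0.11. The miR-17 family sum differed by 0.31 with a standard error of 0.18, and by 0.16 without the fourth control library. Split by cluster, the miR-17 family had a mean log2 difference of 0.52 for miR-17-5p with miR-20a, where the groups did not overlap, and of 0.11 for miR-106b with miR-93, where they overlapped. The miR-25/92a family sum differed by 0.09 with a standard error of 0.13, and its groups overlapped. That difference was -0.01 without the fourth control library and 0.15 to 0.16 without control library 1, control library 3 or AA library 4.

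Partners that share a seed across the clusters were compared directly, as 3 ratios within a library. miR-20a over miR-93 was 0.662, 0.617, 0.651 and 0.497 in control libraries 1 to 4 and 0.938, 0.724, 0.835 and 1.15 in AA libraries 1 to 4. The ratio was higher in all 4 AA libraries than in any control library, by 0.57 on the log2 scale (SE 0.17; exact permutation test, two-sided, p = 0.029, which is the smallest that 4 against 4 libraries allow). Adjusted over the 3 ratios, this exact p was 0.086, so that a single ratio could not have passed at this sample size. miR-92a over miR-25 was 0.964, 0.741, 0.806 and 0.630 in the control libraries and 0.997, 0.810, 0.896 and 1.15 in the AA libraries. The groups overlapped for this ratio, and the log2 difference of 0.30 (SE 0.17) did not pass (exact permutation test, p = 0.11, adjusted p = 0.17), and it was 0.20 without the fourth control library. miR-17-5p over miR-106b was 1.33, 1.25, 1.23 and 1.22 in the control libraries and 1.58, 1.25, 1.26 and 1.37 in the AA libraries. The log2 difference of 0.11 (SE 0.08) was within the overlap of the groups (exact permutation test, p = 0.20, adjusted p = 0.20), and it was 0.04 without the first AA library. miR-17-5p has a further copy on chromosome X, as miR-92a does, whereas miR-20a does not.

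**Figure D4:**
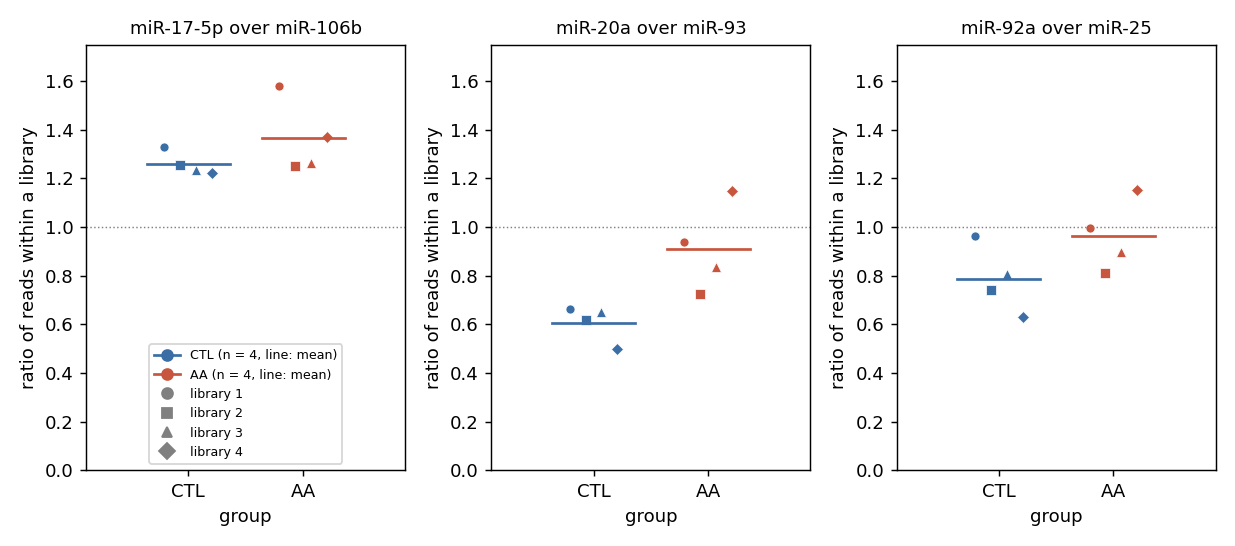
Ratio of the reads of each miR-17/92a member to its seed partner in the miR-106b-25 cluster in each library, with the mean of each group (n = 4) as a line and a dotted line at 1. For miR-20a over miR-93 the control libraries lie between 0.497 and 0.662 and the AA libraries between 0.724 and 1.15, and the other 2 ratios overlap between the groups.

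Ratios between members of one transcript were also examined, after their values had been seen and without a test. miR-18a over miR-20a was 0.0470, 0.0434, 0.0407 and 0.0485 in control libraries 1 to 4 and 0.0642, 0.0656, 0.0526 and 0.0884 in AA libraries 1 to 4. The share of miR-18a beside miR-20a was thus narrow among the controls and higher in every AA library. miR-18a also showed no overlap between the groups when set over miR-17-5p and over miR-92a, while its ratios to miR-19a and to miR-19b overlapped. miR-19b over miR-19a stayed near one level, at 10.6 ± 1.83 in the controls and 10.1 ± 0.841 in the AA group (SD, n = 4 each). In the other cluster, miR-93 over miR-106b was 2.59 to 2.91 in the control libraries and 2.15 to 2.54 in the AA libraries.

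Main arms made up 98.2% ± 0.438 of the reads of the miR-17/92a cluster and 98.6% ± 0.675 of those of the miR-106b-25 cluster in the control group (SD, n = 4 each). None of the 7 opposite arms tested with edgeR was called, and none was called in an alternative fit, DESeq2 included. An unadjusted p under 0.05 was found for 2 of the 7 (miR-93* and miR-19b-1*), a share near the 30% of all miRNAs tested. The log2 fold change was positive for all 7, and for miR-17-1-3p, miR-20a* and miR-25* it turned negative in some alternatives. The scarce miR-93*, miR-19b-1*, miR-92a-1* and miR-20a* had 4 to 38 reads in a library, where counting error is large. miR-93* was at 1.05, 0.957, 0.620 and 0.570 CPM in the control libraries and at 1.24, 1.19, 1.17 and 2.25 CPM in the AA libraries, with a log2 fold change of 0.87 (SE 0.34, edgeR adjusted p = 0.12). Without the fourth AA library the log2 fold change of miR-93* was 0.51. The groups did not overlap for miR-93*, nor for miR-19b-1* (log2 fold change 0.82, SE 0.32, edgeR adjusted p = 0.12). miR-106b* was at 11.2, 11.8, 8.81 and 18.4 CPM in the control libraries and at 16.8, 12.2, 12.9 and 31.9 CPM in the AA libraries, with the library numbered 4 the highest of each group.

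The use of the arms of a hairpin was compared as main-arm reads per opposite-arm read, with limma over 112 hairpins of the whole table. Of all hairpins, 1.79% were called, and of the 4 hairpins of these clusters in that test (miR-20a, miR-106b, miR-93 and miR-25) 0 were called, and 0 had an unadjusted p under 0.05 in limma, against 20.5% of all hairpins. The lowest adjusted p from limma was 0.27, for miR-93 over miR-93*, whose log2 ratio differed by -0.78 (SE 0.38) and whose groups did not overlap. Without the fourth AA library this difference was -0.46. The arms of miR-17, miR-19b and miR-92a were not paired in that test, because the opposite-arm names hold a locus number. In an unplanned fit with those pairs added, 0 hairpins of these clusters were called. There the log2 ratio differed by 0.33 (SE 0.27) for miR-17-5p, -0.24 (SE 0.31) for miR-19b and -0.58 (SE 0.32) for miR-92a. miR-106b over miR-106b* was 27.5, 24.5, 34.8 and 10.8 in control libraries 1 to 4 and 21.3, 29.8, 25.8 and 8.42 in AA libraries 1 to 4. The library numbered 4 was far below the others in both groups, while the groups themselves overlapped. miR-25 over miR-25* was 81.0, 90.1, 95.9 and 39.7 in the control libraries and 56.5, 104, 96.2 and 33.0 in the AA libraries, and again the libraries numbered 4 were the lowest. Over 9 hairpins with both arms listed, the arm ratio was lowest in library 4 of both groups for 6, and the fourth control library had the lowest level of all 9 main arms among the controls. The cause was not tested, and the labels do not say that a number marks a shared batch. With the libraries numbered 1 to 3 alone, 2 of the 16 members tested were called, as with all 8, beside 55 of all 367 miRNAs. The median log2 fold change of the members was then 0.35, against 0.46 with all 8, and that of miR-18a was 0.91, against 1.21.

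**Figure D5:**
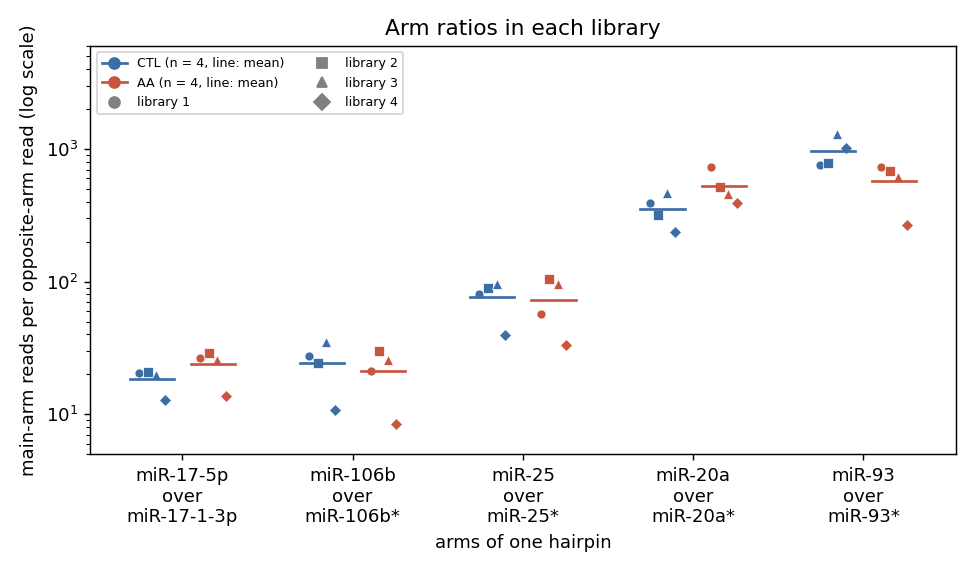
Main-arm reads per opposite-arm read (log axis) for 5 hairpins in each library, with the mean of each group (n = 4) as a line and the library number as the marker. The diamonds of the libraries numbered 4 are the lowest of both groups for miR-17-5p, miR-106b, miR-25 and miR-20a, and for miR-93 in the AA group only.

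Relatives with a shared seed or a place in the X-linked paralogue cluster were taken from a list of 10 names, of which 6 are rows of the table and 5 were tested. None of the 5 was called by edgeR in either direction, against 16.3% of all miRNAs tested, and 0 had an unadjusted p under 0.05, against 30%. Their median log2 fold change was -0.03, between -0.66 (SE 0.44) for miR-32* and 0.50 (SE 0.26) for miR-92b, which has the miR-25/92a seed. The row not tested was miR-20b-3p. miR-363 and miR-20b-5p, which are cut from the X-linked cluster, had log2 fold changes of -0.03 (SE 0.24) and 0.06 (SE 0.27). miR-32, with the miR-25/92a seed and the most abundant of these relatives, was at 503 ± 82.6 CPM in the controls and 458 ± 112 in the AA group (SD, n = 4 each), which is -0.13 as a log2 fold change (SE 0.22, edgeR adjusted p = 0.70).

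Blood cells also express these clusters, and 2 of their markers, both of leukocytes, were higher in the AA group. Of 5 leukocyte markers, 4 are rows of the table, none at 0 in every library, and 2 rose, miR-142-3p (log2 fold change 1.47, SE 0.23, edgeR adjusted p = 0.0018) and miR-223 (1.02, SE 0.25, edgeR adjusted p = 0.019). Over all miRNAs tested, 10.4% were called higher. The summed leukocyte level ran from 914 to 1264 CPM in the control libraries and from 2057 to 4121 CPM in the AA libraries. Most of this sum was miR-142-3p, at a mean of 954 CPM in the controls and 2649 CPM in the AA group. The means of the sum were 1108 and 2885 CPM. miR-150 (adjusted p = 0.062) and miR-142-5p (adjusted p = 0.56) did not pass the edgeR test. Of 3 erythroid markers, miR-451 and miR-144 are rows of the table, neither was called, and their sum ran from 498.5 to 798 CPM in the control libraries and from 158 to 564 CPM in the AA libraries. The part of blood cells in the levels of miR-18a and miR-19b was not tested. In 1 label field the tissue is entered as liver. The paper describes the sequenced RNA as coming from rat kidney, and kidney was taken as the tissue here. The kidney tubule markers miR-192, miR-194, miR-204 and miR-30a summed to between 104263 and 207280 CPM. Most of this was miR-30a, at a control mean of 125631 CPM, and miR-192, at 38408 CPM, while miR-204 was at 30.3 CPM. Of these 4, miR-194 and miR-204 were called lower in the AA group (log2 fold changes -0.73 and -0.80, adjusted p = 0.0499 and 0.034 from edgeR). Among all miRNAs tested, 5.99% were called lower. The liver markers miR-122 and miR-122* summed to 539 CPM in the second AA library and to 0.696 to 54.7 CPM in the other libraries. Whether these sums tell kidney from liver was not tested.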

How the data were processed

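The 8 libraries, each from 1 rat, were made by the authors with an Illumina small RNA kit from gel-cut fragments of 22 to 30 nt, and the deposited counts are whole reads per known rat miRNA after mapping with Bowtie to miRBase version 17. Per the labels' processing notes, Bowtie and DESeq were used, with versions not given in the sources used here. miR-92a and miR-106b are 21 nt long, and what the size cut did to them was not tested. The members and lists were chosen with earlier results of these data known. Every member row was named, with the relatives and markers that have a row. The relatives miR-106a, miR-18b, miR-363* and miR-367 and the markers miR-155 and miR-486 had none.

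Counts of 367 of 620 miRNAs (at least 10 reads in at least 4 libraries) were tested with edgeR 4.0.16 (R 4.3.3; TMM, quasi-likelihood test, Benjamini-Hochberg adjustment, threshold 0.05), and arm ratios with limma 3.58.1 on log2 values with 0.5 read added to each arm. Seed partner ratios were tested with an exact two-sided permutation test over 70 splits. CPM is the count scaled to the TMM library size. Sums and other ratios were given no test. Sequences and loci came from RefSeq (GRCr8), since no build is given with the counts. A count of 0 allows up to 3 reads, or 0.192 to 0.224 CPM before TMM factors, which covers counting error only. Alternatives were total counts, DESeq2 1.42.0, other filters, a replicate block and leaving out each library. In simulated counts for the comparison of AA with control over 367 miRNAs, edgeR recovered 99% of 200 miRNAs changed by 2 on the log2 scale, with 3 false calls. The log2 fold changes of the members were smaller, 1.21 at most, and the recovery of changes of that size was not measured.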

Additional observations from a re-analysis of the deposited data

Results flagged for a closer look

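Among 52 groups of 4 libraries, 4 held a library that lay far from the other 3 by Dixon's criterion, where chance gives 2.6. miR-106b was at 199.7 CPM in the fourth control library and at 291 to 307 CPM in the other controls. miR-25* was at 9.94 CPM in the same library and at 5.00 to 5.62 CPM in the other controls. miR-93* was at 2.25 CPM in the fourth AA library and at 1.17 to 1.24 CPM in the other AA libraries. The miR-17/92a sum was 2166 CPM in the first AA library and 1687 to 1754 CPM in the other AA libraries.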

How the results depend on the processing

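The count of members called was 2 of 16 in edgeR and stayed at 2 with DESeq2 size factors, the DESeq2 Wald test, either other filter, without the most abundant miRNAs and with libraries 1 to 3. Over all miRNAs tested, 52 of 305 were called with 10 reads in all 8 libraries and 54 of 620 with no filter. Without the most abundant miRNAs, 54 of 363 were called. The rest of these settings called 55 (libraries 1 to 3) to 76 (DESeq2 Wald test) of 367, against 60 of 367. With total counts 4 members were called, miR-19a and miR-20a being added, and over all miRNAs 54 were then called higher and 14 lower, against 38 and 22 with TMM. Leaving out 1 library gave 1 to 2 members, with miR-19b lost without control library 1, 2 or 3 or AA library 1, 2 or 3, and 36 to 54 miRNAs called overall against 60. With total counts the log2 difference of the summed CPM was 0.28 for miR-106b-25, 0.84 for the miR-19 family and 0.30 for the miR-25/92a family. The miR-20a to miR-93 difference was 0.46 to 0.68 when 1 library was left out (exact permutation p = 0.029 to 0.057), the higher p coming without any control library. With the replicate number as a block, 3 members were called, miR-19a being added, and 78 miRNAs in all. To compare same-numbered libraries, the group mean of each miRNA's log2 CPM was first subtracted from each library. The deviations left in same-numbered libraries correlated at 0.07, 0.23, 0.20 and 0.44 over 367 miRNAs. The labels do not say that a number marks a shared batch, and 1 of the 4 correlations was under 0.1, so the numbers were not taken as pairs. The AA library correlated best with its own number for 3 of 4, which is a hint of shared variation from the data and not from the design. The cause of these shifts was not tested. No single member that was called changed sign. Depth limits the scarce opposite arms, at 4 to 38 reads in a library.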
